A study of Mus musculus with 10 samples.

Results

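The enzymes that write and erase methyl groups on DNA and on lysine 27 of histone H3 were examined in mouse tongue epithelial cells with and without a pair of inducible oncogenes. The members were 10 genes taken by symbol (Dnmt1, Dnmt3a, Dnmt3b, Uhrf1, Tet2, Tet3, Ezh1, Ezh2, Suz12 and Kdm6b), and all 10 were found among the 18586 entries of the expression table. Values are TPM, a transcript abundance that is scaled by transcript length and to the same sum in every library. Cells of the EY genotype carried the drivers Krt14-CreERT and LSL-rtTA, the reporter tetON_H2B-GFP, and the inducible oncogenes tetON_E6-E7 and tetON_YAP1S127A, so that a reverse transactivator switched on by Cre drove the papillomavirus oncogenes E6 and E7 together with a constitutively active YAP1. Cells of the N genotype carried Krt14-CreERT, LSL-rtTA and tetON_H2B-GFP without either oncogene, so both groups shared the Cre driver, the transactivator and the reporter. Because the Krt14 promoter drives CreERT, recombination was directed to basal keratinocytes. Cells were taken 15 days after induction with tamoxifen and doxycycline. Both groups were sorted for green fluorescence and cultured in medium with doxycycline. For EY cells the study's methods describe culture before the sorting and a return to culture after it. The 6 EY libraries came from 3 lines (EY3960, EY4028 and EY4174, 2 from each), and the 4 N libraries came from 1 line (N4172). Genotype and line therefore cannot be told apart on the N side, libraries of 1 line are not independent animals, and nothing in the labels says whether they came from separate cultures, so p-values may measure technical spread.

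DNMT1 copies methylation onto the new strand at replication and is guided there by UHRF1, which reads hemimethylated DNA, while DNMT3A and DNMT3B place methylation on unmethylated sites. TET dioxygenases oxidise methylcytosine and so start its removal. EZH1 and EZH2 are the alternative catalytic subunits of Polycomb repressive complex PRC2, which needs SUZ12 to methylate H3K27, and KDM6B removes that mark. In stratified epithelia DNMT1, UHRF1 and EZH2 are known to act in keeping basal progenitors from differentiating early.

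Of the 10 members, 9 passed the filter of at least 1 TPM in at least 4 libraries and were tested among 11630 genes. Tet2 transcript was lower in EY than in N, at 4.49 ± 0.752 TPM (SD, n = 6) against 7.46 ± 0.913 TPM (SD, n = 4). Ezh2 transcript was higher in every EY library than in every N library, at 66.0 ± 5.93 TPM (SD, n = 6) against 54.4 ± 4.93 TPM (SD, n = 4), but did not pass the adjusted threshold of 0.01. The DNA methyltransferases, Uhrf1, Tet3, Ezh1, Suz12 and Kdm6b overlapped between EY and N. None of the 9 was called, that is, had both an adjusted p under 0.01 and a log2 fold change over 1 in size, compared with 3.55% of all tested genes.

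The promoters of 4 members carried letters that E2F factors are known to bind. These were also the 4 members with the highest mean TPM, but whether such letters go with level was not tested. Reference windows of 300 bases, 250 before and 50 from the start of a RefSeq transcript (GRCm38.p6), were matched by symbol for 9 members, all but Kdm6b, and gave 14 windows. The letters TTTCCCGC, TTTCGCGC, TTTGCCGC and TTTGGCGC were searched on both strands. Each of these 4 sequences holds a CpG. They occurred in 2.265% of all 32851 windows, which held a median of 7 CpG dinucleotides. The share among windows of like CpG content was not tested. They occurred in 4 of the 14 member windows, and these 4 held 31 to 41 CpG dinucleotides each. The first 280 bases of those windows, which end 30 bases into the transcript, are shown for Dnmt1 (chr9:20952594-20952873, minus strand), Uhrf1 (chr17:56304063-56304342, plus strand), Ezh2 (chr6:47595001-47595280, minus strand) and Suz12 (chr11:79992856-79993135, plus strand), with the matching letters in capitals. The window of Tet2 (chr3:133544361-133544640, minus strand) is shown beside them because Tet2 was the member that differed between EY and N, and it has no match.
Dnmt1: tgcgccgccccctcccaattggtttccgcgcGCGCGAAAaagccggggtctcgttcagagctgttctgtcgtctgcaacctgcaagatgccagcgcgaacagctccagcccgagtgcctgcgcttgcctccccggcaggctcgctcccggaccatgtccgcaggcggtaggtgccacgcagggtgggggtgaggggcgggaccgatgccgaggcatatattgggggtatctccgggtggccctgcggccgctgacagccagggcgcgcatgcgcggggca
Uhrf1: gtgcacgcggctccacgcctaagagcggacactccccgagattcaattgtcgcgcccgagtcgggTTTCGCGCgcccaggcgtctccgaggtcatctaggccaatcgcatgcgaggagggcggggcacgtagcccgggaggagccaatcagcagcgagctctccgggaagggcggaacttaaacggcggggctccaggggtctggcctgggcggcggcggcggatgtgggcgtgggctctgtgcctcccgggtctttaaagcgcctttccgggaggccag
Ezh2: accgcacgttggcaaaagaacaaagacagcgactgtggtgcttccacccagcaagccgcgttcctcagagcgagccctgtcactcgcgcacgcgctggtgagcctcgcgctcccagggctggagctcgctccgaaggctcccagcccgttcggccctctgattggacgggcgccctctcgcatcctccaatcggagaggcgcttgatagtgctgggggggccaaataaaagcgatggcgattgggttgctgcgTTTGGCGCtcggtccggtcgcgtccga
Suz12: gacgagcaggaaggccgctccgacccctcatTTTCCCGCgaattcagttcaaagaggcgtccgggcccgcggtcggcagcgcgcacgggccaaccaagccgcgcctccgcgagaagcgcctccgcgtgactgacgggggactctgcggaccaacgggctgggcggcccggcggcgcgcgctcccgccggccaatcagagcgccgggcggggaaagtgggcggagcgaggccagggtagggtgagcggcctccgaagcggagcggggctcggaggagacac
Tet2: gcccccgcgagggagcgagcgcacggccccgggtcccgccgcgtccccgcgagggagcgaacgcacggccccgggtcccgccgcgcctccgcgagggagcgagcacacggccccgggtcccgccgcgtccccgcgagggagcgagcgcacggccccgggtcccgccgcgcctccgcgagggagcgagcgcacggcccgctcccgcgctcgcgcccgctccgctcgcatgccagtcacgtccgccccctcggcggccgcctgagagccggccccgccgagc
In Dnmt1 the match lay at -219 to -212, where the printed strand reads GCGCGAAA and the opposite strand the searched letters TTTCGCGC, and a second match, TTTGGCGC, lay at 34 to 41, beyond the bases shown. The match was at -185 to -178 in Uhrf1, at 4 to 11 in Ezh2 and at -219 to -212 in Suz12, counting from 1 at the transcript start and from -1 just before it. The TEAD letters GGAATG, the sequence through which YAP1 is known to reach DNA, occurred in 1 of the 14 member windows (another start of Uhrf1) and in 14.66% of all windows. The Tet2 window held 57 CpG dinucleotides, compared with a median of 7 over all windows, and 99.85% of windows held fewer. A match is a description of the reference sequence and does not show binding in these cells.

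**Figure D1:**
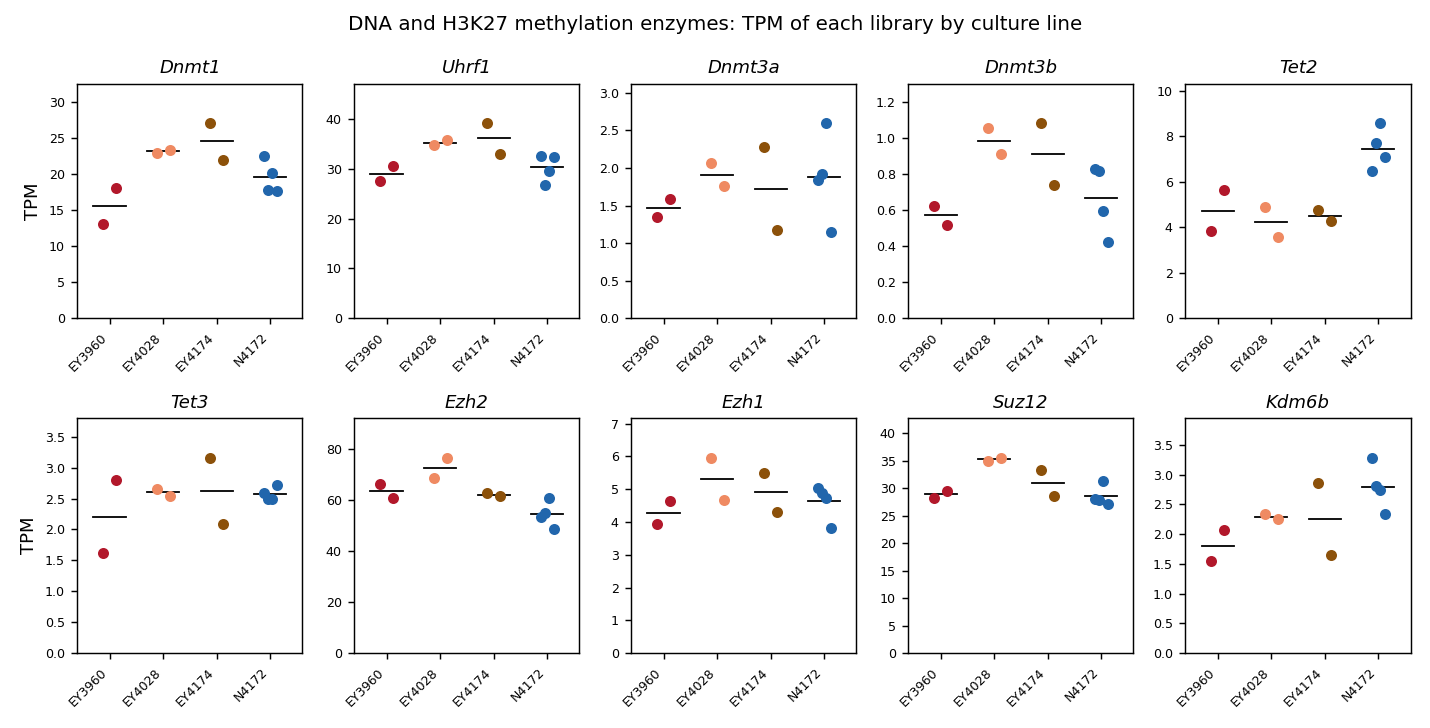
TPM of the 10 members in each library, by line. Points are libraries, bars are line means, and each vertical axis starts at 0 with its own scale. The 4 N points of Tet2 lie above all 6 EY points, and the 4 N points of Ezh2 lie below all 6 EY points, while the other members overlap.

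For the maintenance pair, neither the log2 fold change between EY and N nor the log2 span over the EY lines passed the threshold. Dnmt1 TPM was 13.0 and 18.0 in EY3960, 22.9 and 23.3 in EY4028, 27.1 and 21.9 in EY4174, and 22.5, 17.8, 20.2 and 17.6 in the N libraries. The EY3960 pair stood at the low end and the other 4 EY libraries reached into the upper part of the N range or beyond it. The log2 fold change of Dnmt1 between EY and N was 0.08 (95% interval -0.29 to 0.44, limma, adjusted p = 0.778). Among the EY lines its log2 means spanned 0.63, with an adjusted p of 0.0468 by limma's F test. Uhrf1, which recruits DNMT1, had 27.6 and 30.5 TPM in EY3960, 34.7 and 35.8 TPM in EY4028, 39.2 and 33.0 TPM in EY4174, and 32.4, 26.8, 29.5 and 32.3 TPM in N. Its libraries fell in the same order of lines as Dnmt1, with EY3960 lowest and EY4174 highest among the EY means. The log2 fold change of Uhrf1 between EY and N was 0.14 (95% interval -0.09 to 0.36, adjusted p = 0.366), and its span over the EY lines was 0.30 (adjusted p = 0.111).

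The methyltransferases that act on unmethylated DNA were near the 1 TPM used as filter. Dnmt3a was at 1.35 and 1.59 TPM in EY3960, 2.06 and 1.76 TPM in EY4028, 2.28 and 1.17 TPM in EY4174, and 1.84, 1.92, 2.60 and 1.15 TPM in N. Both groups ran over almost the same range, and the log2 fold change was -0.08 (95% interval -0.45 to 0.29, adjusted p = 0.763). Dnmt3b was at 0.623 and 0.518 TPM in EY3960, 1.06 and 0.913 TPM in EY4028, 1.08 and 0.737 TPM in EY4174, and 0.828, 0.819, 0.595 and 0.424 TPM in N. It reached 1 TPM in only 2 libraries, 1 of EY4028 and 1 of EY4174, and was not tested under the filter. When the filter was dropped its log2 fold change was 0.13 (adjusted p = 0.556). The ratio of Dnmt1 TPM to the summed TPM of Dnmt3a and Dnmt3b was 8.47 ± 1.68 over the EY libraries (SD, n = 6), beside 8.13 ± 2.29 over the N libraries (SD, n = 4), and the ranges of the groups overlapped.

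Tet2 was the 1 member that passed the adjusted threshold of 0.01 between EY and N, where 11.8% of all tested genes passed in either direction. Its TPM was 3.82 and 5.63 in EY3960, 4.90 and 3.59 in EY4028, and 4.74 and 4.27 in EY4174, against 6.45, 7.71, 8.59 and 7.09 in N. The highest EY library lay below the lowest N library, and each EY line had both of its libraries below N. Mean TPM was 39.8% lower in EY, and the log2 fold change on log2(TPM + 1) was -0.63 ± 0.13 (SE, 95% interval -0.90 to -0.35, limma, adjusted p = 0.00408). The EY lines differed little from one another, with log2 means that spanned 0.12 (adjusted p = 0.867). Against N, Tet2 differed by -0.57 in EY3960 (adjusted p = 0.0265), -0.69 in EY4028 (adjusted p = 0.0106) and -0.62 in EY4174 (adjusted p = 0.0200), none of which passed 0.01 on its own. The EY4028 value of Tet2 did pass under median-of-ratios scaling (-0.79, adjusted p = 0.00333) and quantile normalization (-0.83, adjusted p = 0.00243), which set the median of all genes in that line close to that of N. The lower level of Tet2 did not pass the threshold without N library 2 (-0.61, adjusted p = 0.0169), without N library 3 (-0.57, adjusted p = 0.0194), without line EY4028 (-0.59, adjusted p = 0.0171) or without line EY4174 (-0.63, adjusted p = 0.010, just above the threshold). It did not pass either with line as a random block (adjusted p = 0.131) or over the 4 line means (adjusted p = 0.397). The fold change was negative under all 22 alternatives that were run.

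Tet3, the other TET enzyme measured, showed no such separation. Its TPM was 1.61 and 2.80 in EY3960, 2.66 and 2.54 in EY4028, 3.16 and 2.09 in EY4174, and 2.59, 2.50, 2.49 and 2.71 in N. The N libraries were close together inside the wider EY range, and the log2 fold change was -0.05 (95% interval -0.35 to 0.25, adjusted p = 0.806). Tet2 made up 64.6 ± 4.54% of the summed TPM of Tet2 and Tet3 in EY (SD, n = 6, range 58.5% to 70.3%) and 74.2 ± 2.86% in N (SD, n = 4, range 71.4% to 77.5%). These shares did not overlap, and they are given without a test because the Tet2 values already enter the comparison above.

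PRC2 catalytic transcript came mainly from Ezh2. Ezh2 TPM was 66.2 and 60.9 in EY3960, 68.4 and 76.6 in EY4028, and 62.6 and 61.6 in EY4174, against 53.2, 54.8, 60.7 and 48.7 in N. The lowest EY library and the highest N library were almost level, so the groups were separate but adjoining. The ratio of means was 1.21 and the log2 fold change 0.28 ± 0.09 (SE, 95% interval 0.09 to 0.46, limma, adjusted p = 0.0353). With Tet2, Ezh2 made 2 of the 9 tested members without overlap between EY and N, compared with 20.4% of all tested genes. By line, Ezh2 differed from N by 0.22 in EY3960 (adjusted p = 0.106), by 0.41 in EY4028 (adjusted p = 0.00866) and by 0.19 in EY4174 (adjusted p = 0.157). The EY4028 value passed the threshold, but the median of all genes in that line was itself 0.09 above N, and under median-of-ratios scaling, where that median was -0.01, Ezh2 in EY4028 was at 0.30 (adjusted p = 0.0484). It also missed the threshold without library 1 (adjusted p = 0.0336) or library 2 (adjusted p = 0.121) of EY4028, without N library 1 (adjusted p = 0.0224) or N library 2 (adjusted p = 0.0186), and without any single library of EY3960 or EY4174, where adjusted p ran from 0.0136 to 0.0137. No test showed that the lines differ for Ezh2, whose span among them was 0.22 (adjusted p = 0.142).

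Ezh1, the paralog linked to non-dividing cells, was low throughout. Its TPM was 3.93 and 4.64 in EY3960, 5.96 and 4.67 in EY4028, 5.50 and 4.30 in EY4174, and 5.04, 4.89, 4.74 and 3.82 in N. The groups lay over each other (log2 fold change 0.05, 95% interval -0.22 to 0.32, adjusted p = 0.807). Ezh2 TPM exceeded Ezh1 TPM by a factor of 13.9 ± 2.37 over the EY libraries (SD, n = 6), beside 11.8 ± 1.13 over the N libraries (SD, n = 4), ranges that overlapped. Suz12, the scaffold of the complex, was at 28.1 and 29.6 TPM in EY3960, 35.0 and 35.6 TPM in EY4028, 33.3 and 28.7 TPM in EY4174, and 28.0, 27.9, 31.3 and 27.1 TPM in N. Only the EY4028 pair and the first EY4174 library were above the N range. The log2 fold change of Suz12 was 0.14 (95% interval -0.06 to 0.34, adjusted p = 0.281), and it was 0.30 in EY4028 alone (adjusted p = 0.0339).

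Kdm6b, the demethylase, had a lower mean in EY than in N, a difference that did not pass the test. Its TPM was 1.55 and 2.07 in EY3960, 2.33 and 2.25 in EY4028, 2.87 and 1.65 in EY4174, and 3.29, 2.81, 2.74 and 2.34 in N. Both EY3960 libraries, both EY4028 libraries and 1 EY4174 library were below the lowest N library, and the remaining EY4174 library was above 3 of the 4 N libraries. Mean TPM was 24.2% lower in EY, and the log2 fold change was -0.29 ± 0.14 (SE, 95% interval -0.60 to 0.01, adjusted p = 0.152). The lowest line was EY3960, at -0.44 against N (95% interval -0.82 to -0.05, adjusted p = 0.0892).

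**Figure D2:**
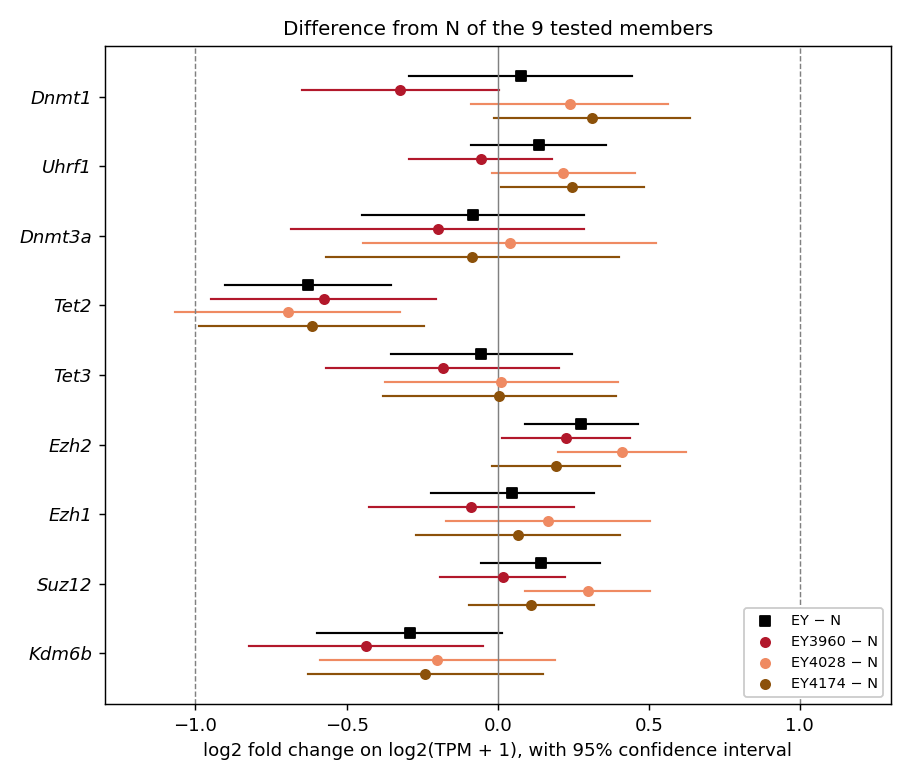
Differences from N of the 9 tested members on log2(TPM + 1). Black squares are EY minus N, coloured points are each EY line minus N, and bars are 95% confidence intervals. The 4 intervals of Tet2 lie below 0, no point estimate passes -1 or 1 (dashed lines), and for Dnmt1 the EY3960 point (-0.32) and the EY4028 and EY4174 points (0.24 and 0.31) stand on opposite sides of 0.

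Among the EY lines, none of the 9 tested members reached an adjusted p of 0.01 by limma's F test, a level that 10.8% of all tested genes reached, and 5.80% of genes also spanned over 1 on the log2 scale. At an unadjusted p of 0.05, the members that passed among the EY lines were Dnmt1 and Uhrf1, 2 of 9, compared with 41.6% of all tested genes. Against N, 0 of the 9 members passed the adjusted threshold in EY3960 (17.0% of all genes), 1 passed in EY4028 (Ezh2, 16.7% of all genes) and 0 passed in EY4174 (15.6% of all genes). With the size threshold added, none was called in any line, where 7.04%, 5.74% and 4.95% of genes were called in EY3960, EY4028 and EY4174. Between EY and N, an unadjusted p under 0.05 was reached by Tet2 and Ezh2, 2 of 9, compared with 37.5% of all tested genes. N stood at an end of the 4 line means for 4 of the tested members, compared with 58.0% of all tested genes. The comparisons of the 3 lines share the N libraries.

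The median log2 fold change of the tested members was 0.05, beside 0.03 over all tested genes. Their median absolute log2 fold change was 0.14, beside 0.22 over all tested genes. The members differed far more in level than between genotypes. By mean TPM over the 10 libraries the order was Ezh2, Uhrf1, Suz12, Dnmt1, Tet2, Ezh1, Tet3, Kdm6b, Dnmt3a and Dnmt3b. Ezh2 was above 84.1% of the tested genes, Uhrf1 above 73.6%, Suz12 above 72.4% and Dnmt1 above 63.6%. Tet2 was above 32.9% of the tested genes, Ezh1 above 29.1%, Tet3 above 16.8%, Kdm6b above 15.9% and Dnmt3a above 11.1%. Uhrf1 and Suz12 were neighbours whose libraries overlapped within both groups, as were Tet3, Kdm6b and Dnmt3a, and in EY Tet2 and Ezh1 overlapped as well, whereas in N every Tet2 library was above every Ezh1 library.

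**Figure D3:**
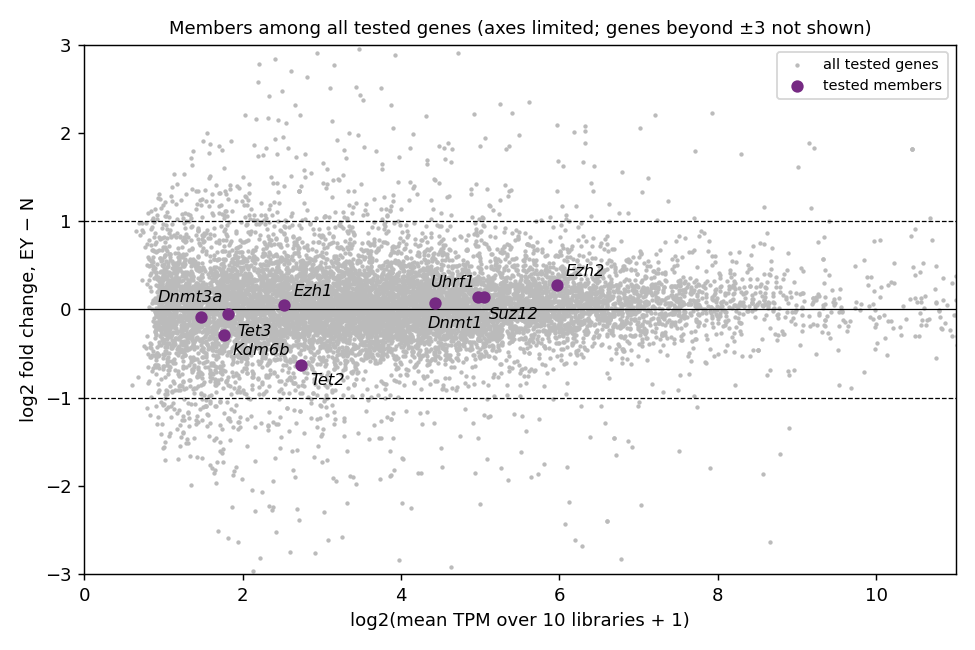
Log2 fold change between EY and N against mean level, log2 of the mean TPM over 10 libraries plus 1, for all tested genes (grey) and the 9 tested members (purple). Dashed lines mark log2 fold changes of -1 and 1, and genes beyond 3 in size are not drawn. Every member lies between the dashed lines, with Tet2 lowest at -0.63 and Ezh2 highest at 0.28.

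Over all 11630 tested genes, 795 were higher and 582 lower in EY at an adjusted p under 0.01, together 11.8%. Counts of the gene lists at that threshold stand beside that share, and counts of called genes beside 3.55%. Of the 13 tested partners and readers of DNA methylation, 4 were lower in EY at an adjusted p under 0.01, 0 were higher and 9 did not pass. Among the 4 is Zbtb4, whose direction the filter had set, so the split of 4 to 0 is not a test of direction. The median log2 fold change of the 13 was -0.16 beside 0.03 over all tested genes. The 4 were Zbtb4, Zbtb38 and Zbtb33, which encode zinc finger proteins that bind methylated DNA, and Hells, a chromatin remodeller needed for normal DNA methylation. Zbtb4 was at 1.13 TPM in N and 0.251 TPM in EY (difference on the log2 scale -0.77, adjusted p = 0.00111), and Zbtb38 at 6.30 and 3.55 TPM (-0.69, adjusted p = 0.00327). Zbtb33 stood at 22.3 and 15.1 TPM (-0.53, adjusted p = 0.00433) and Hells at 89.2 and 66.9 TPM (-0.41, adjusted p = 0.00821) in the same order. Zbtb33 and Hells were named after their values were seen. All 4 had every EY library below every N library, while 20.4% of all tested genes had no overlap in either direction. The 4 had been picked by adjusted p, so this separation is not further evidence. Zbtb4, at most 0.406 TPM in EY and at least 1.06 TPM in N, passed the filter through N alone. Its direction therefore followed from the filter. Hells kept an adjusted p under 0.01 in only 6 of the 22 alternatives, and Zbtb38 and Zbtb33 in 15 each. Among the libraries left out one at a time, Zbtb38 and Zbtb33 no longer passed without N library 1, 2 or 3, and Hells no longer passed under 8 of the 10. With line as a random block none of the 4 passed, with adjusted p of 0.0405 for Zbtb4, 0.0921 for Zbtb38, 0.108 for Zbtb33 and 0.147 for Hells.

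Among 9 tested core and accessory subunits of PRC2, 1 was higher in EY, 0 were lower and 8 did not pass (median log2 fold change -0.06). The 1 was Epop, which links PRC2 to elongin, with 19.6 ± 4.03 TPM over the EY libraries (SD, n = 6), beside 10.4 ± 1.78 TPM over the N libraries (SD, n = 4). Its log2 fold change was 0.84 (adjusted p = 0.00233), and it did not pass without line EY4028 or with line as a random block (adjusted p = 0.0495). The histone chaperone Rbbp4 stood at 79.8 TPM in EY and 66.5 TPM in N (log2 fold change 0.26, adjusted p = 0.0272). Eed, the subunit that reads the finished H3K27 mark, stood at 77.2 and 77.7 TPM (log2 fold change -0.01, adjusted p = 0.919) and was named after its values were seen. In the 25 genes of PRC1, the complex that ubiquitinates H2A, and its opponents, 1 was higher in EY, 0 were lower and 24 did not pass (median -0.05). The 1 was Scmh1, a Polycomb protein, at 44.1 TPM in EY and 31.3 TPM in N (log2 fold change 0.49, adjusted p = 0.00106, and 0.0572 with line as a random block), while Phc2, a PRC1 subunit, had a log2 fold change of 0.68 and missed the threshold (adjusted p = 0.0208).

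None of the 3 tested genes of H3K27 demethylation and acetylation passed. Kdm6a, the X-linked relative of Kdm6b, had 8.78 TPM in EY and 9.83 TPM in N (log2 fold change -0.16, adjusted p = 0.488), and the acetyltransferase gene Crebbp had 2.02 and 1.99 TPM (log2 fold change -0.01, adjusted p = 0.973). Of 7 tested genes of methyl donor and cofactor metabolism, 1 was higher, 1 was lower and 5 did not pass (median -0.12). Mat2b, a regulatory subunit of the enzyme that makes S-adenosylmethionine, had 40.9 TPM in N but 28.1 TPM in EY (-0.52 on the log2 scale, adjusted p = 9.24e-04). Ahcy, which clears the S-adenosylhomocysteine left by methyl transfer, had 142 TPM in N but 203 TPM in EY (0.51 on the log2 scale, adjusted p = 0.00392), and did not pass without N library 2 or without line EY4028. Of 18 tested genes of DNA replication and proliferation, whose transcripts track dividing cells as Dnmt1, Uhrf1 and Ezh2 are known to do, 0 were higher, 2 were lower and 16 did not pass, with a median of -0.01. The 2 were Tk1, thymidine kinase (log2 fold change -0.46, adjusted p = 9.02e-04), and Ccnb1, a mitotic cyclin (log2 fold change -0.44, adjusted p = 0.00652). Ccnb1 no longer passed without library 1 or 2 of EY4028, library 1 of EY4174, or N library 1, 2 or 3. With line as a random block none of these 4 passed, with adjusted p of 0.0498 for Mat2b, 0.0764 for Ahcy, 0.0409 for Tk1 and 0.0957 for Ccnb1.

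Some genes whose silencing is known to involve DNA methylation or Polycomb were higher in EY and some were lower. The threshold of 0.01 was missed by 1 of 3 tested germline genes, 3 of 4 Polycomb targets and 5 of 7 imprinted genes. From the list of 18 germline genes, 6 had an entry, 3 were tested and 2 were called, both higher in EY. Over all tested genes 3.55% were called, in either direction. The list was chosen with earlier results of these data known, so the 2 calls do not test the list against that share. Stag3, a meiotic cohesin, was at 52.7 ± 5.76 TPM over the EY libraries (SD, n = 6), beside 0.218 ± 0.217 TPM over the N libraries (SD, n = 4) and differed by 5.47 on the log2 scale (adjusted p = 1.07e-10). Rhox5, a reproductive homeobox gene, was at 272 ± 132 TPM over the EY libraries (SD, n = 6), beside 2.74 ± 0.451 TPM over the N libraries (SD, n = 4) and differed by 6.01 on the log2 scale (adjusted p = 1.91e-05). Of the 4 tested genes known as Polycomb targets, 1 was higher, Cdkn2a, the locus of p16 and ARF, at 29.4 TPM in EY and 14.7 TPM in N (log2 fold change 0.95, adjusted p = 9.92e-05). Hoxc13 had the value 0 in each of the N libraries and ranged from 0.137 to 1.85 TPM in EY (adjusted p = 0.0179). Stag3, at most 0.520 TPM in N, and Hoxc13 passed the filter through EY alone, so their direction followed from the filter. Of the 7 tested imprinted genes, 2 were called as lower, Impact at 9.14 against 21.2 TPM (log2 fold change -1.17, adjusted p = 8.30e-04) and Peg3 at 1.45 against 4.94 TPM (log2 fold change -1.28, adjusted p = 8.66e-04). With line as a random block Impact and Peg3 did not pass (adjusted p = 0.0122 and 0.0372), whereas Stag3, Rhox5 and Cdkn2a did (adjusted p = 2.52e-08, 1.17e-04 and 0.00719). Over the 4 line means Stag3 passed (adjusted p = 5.32e-04) and Rhox5 (adjusted p = 0.292) and Cdkn2a (adjusted p = 0.185) did not. The filter had set the direction of Stag3, so its adjusted p-values are no support for that direction. No DNA or histone methylation was measured in these libraries.

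**Figure D4:**
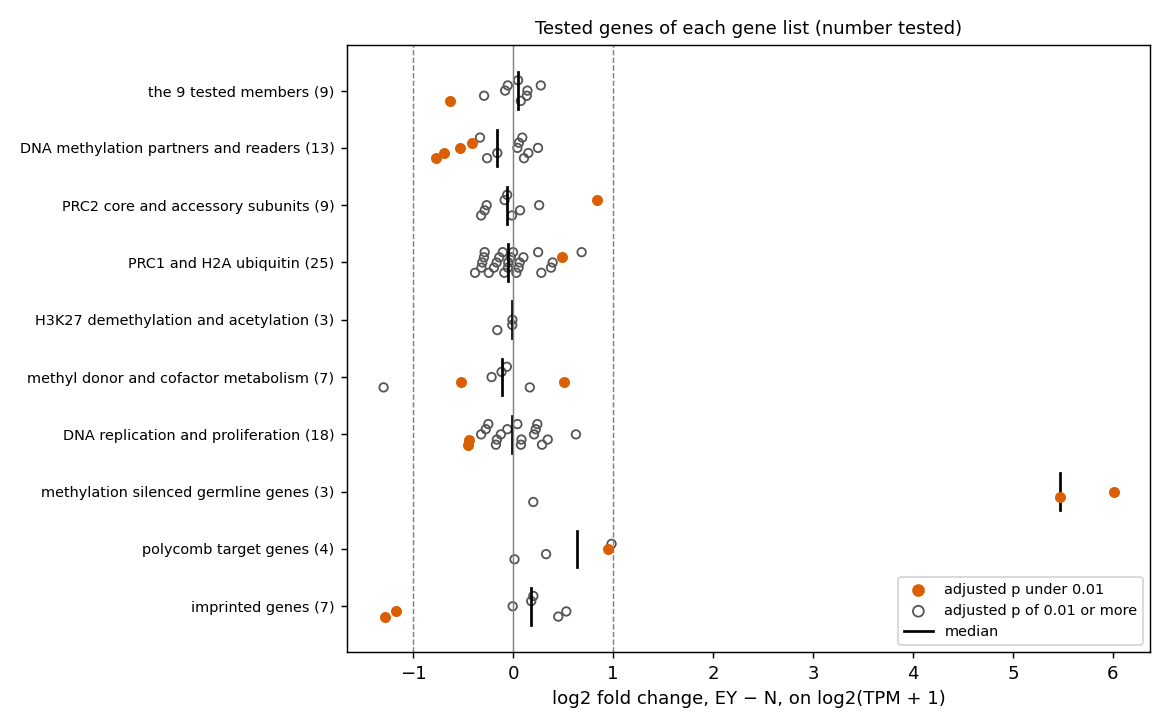
Log2 fold change between EY and N on log2(TPM + 1) of the tested genes in each list, with the number tested in brackets. Filled points have an adjusted p under 0.01, open points do not, and the bars are list medians. The medians of the members and of the PRC2, PRC1 and proliferation lists lie between -0.06 and 0.05, and Stag3 and Rhox5 stand alone at 5.47 and 6.01.

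The genes with the most similar profile were sought for the 3 members with the smallest p between EY and N, by the root mean square difference of centred log2(TPM + 1) over the 10 libraries. For Tet2, whose own SD over the libraries was 0.35, they were Spopl (difference 0.13), Cdca2 (0.132) and Slc25a36 (0.135), out of 7640 genes with a mean of at least 5 TPM. For Ezh2, with an SD of 0.18, they were Igsf8 (0.0647), Sms (0.0678) and Emc8 (0.0716). For Kdm6b, with an SD of 0.23, they were Dennd5a (0.0663), Nisch (0.0876) and Smo (0.0884).

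The Yap1 entry was at 34.7 to 57.1 TPM in EY and 17.2 to 20.9 TPM in N (log2 fold change 1.17, adjusted p = 1.73e-04). How far reads of the YAP1S127A transgene count towards that entry was not tested. Mitochondrial transcripts took 14.1% to 19.9% of TPM in EY and 17.6% to 20.5% in N. Krt5 and Krt14 were at 1321 TPM or more in every library, and of the 8 basal markers Epcam was higher and Trp63 lower in EY while 6 did not pass. The markers of fibroblasts, endothelium, muscle and melanocytes were low. The summed TPM of 2 fibroblast markers with an entry was at most 0.174 in EY and 0.748 in N. In the same order it was at most 1.36 and 1.18 for 3 endothelial markers and 0.304 and 0.933 for 2 muscle markers. For 3 melanocyte markers it was at most 1.06 and 3.24. Among these 3, Mlana was at 0 to 0.548 TPM in EY and 0.665 to 2.88 TPM in N, without overlap, while Dct and Pmel overlapped. The summed TPM of 4 immune markers was 36.7 to 104 in EY and 42.9 to 71.7 in N, with Ptprc and Csf1r at 0.347 TPM or less in every library and the rest in Cd68 and S100a8. Of these 2, S100a8 was higher in EY, at 15.4 against 1.41 TPM (adjusted p = 0.00906), and its part in the results above was not tested. In bulk libraries fewer cells of a type and less RNA per cell cannot be told apart.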

How the data were processed

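RNA from 10 libraries of GFP-sorted, cultured tongue epithelial cells was selected with oligo-dT and sequenced. The deposited values are TPM, which the authors computed per gene symbol. The submitters' processing notes name STAR 2.7.9, SAMtools 1.7, HTSeq 0.13.5, DESeq2 1.34.0 and GRCm39, without saying which made the TPM. For enrichment analysis the study's methods describe Kallisto TPM against a human transcriptome, each gene taking its highest transcript. Whether the deposited TPM came from that step is not stated. TPM keep no read depth, so no counting interval or floor can be given, and a low value is less precise to an unknown degree.

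The test was limma 3.58.1 (R 4.3.3; trend and robust options) on log2(TPM + 1), a scale that understates fold changes of low genes. Genes that reached 1 TPM in 4 or more libraries were tested. Calls needed a Benjamini-Hochberg adjusted p under 0.01 over all 11630 genes and a log2 fold change over 1. EY was compared with N, the 3 EY lines with one another by an F test, and each EY line with N in a model of 4 line means. Tested on simulated data in which 200 of 11630 genes had been changed, the comparison of EY and N recovered 193 and called 0 others. The fit of each line recovered 186 in all 3 lines, and the fit between EY lines recovered 160. Apart from the changes put in, the simulated lines did not differ. The simulation therefore cannot show how often a difference between lines is called as one between EY and N.

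The members and gene lists were chosen with earlier results of these data known. Named genes were the 10 members, Yap1, the called genes and the 2 smallest adjusted p of each list, and the 3 nearest profiles of 3 members. Promoter windows were matched by symbol to RefSeq (GRCm38.p6), not the build of the reads. Alternatives were the pseudocount, the filter, 3 other scalings, blocks by number and by line, line means, and leaving out each line or library.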

Additional observations from a re-analysis of the deposited data

Results flagged for a closer look

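Among 79 groups of EY or N libraries of named genes, 2 held 1 library far from the rest by Dixon's test, where chance gives about 3.95. Slc25a36 was at 33.7 TPM in N library 3 and at 29.1 to 29.7 TPM in the other N libraries. Emc8 was at 113 TPM in library 2 of EY4028 and at 98.9 to 102 TPM in the other EY libraries. Neither is a member, and both are near profiles of members, Slc25a36 of Tet2 and Emc8 of Ezh2.

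Of the genes named by rule, 2 differed by over 1 between the EY lines at an adjusted p under 0.01 by limma's F test, and no member did. Rhox5 spanned 1.84 on the log2 scale over the EY line means (adjusted p = 2.66e-05). Hoxc13 spanned 1.15 (adjusted p = 0.00513). Genes of the lists outside that rule did so too, such as the imprinted gene Mest, named after its values were seen, which spanned 2.36 (adjusted p = 1.72e-04).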

How the results depend on the processing

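TPM keep no depth, and with 1 N line no alternative separates genotype from line. Same-numbered libraries were not paired: correlations of their deviations between lines ran from -0.148 to 0.0518, so a replicate block by number is only a check. It gave 221 called genes, 345 at adjusted p alone and 0 members, with Tet2 at -0.56 (adjusted p = 0.0801). Line as a random block gave 203, 248 and 0, and line means, with 4 values in all, 2, 2 and 0. With at least 1 TPM in every library 216 genes were called between EY and N, 403 between EY lines, and 455, 371 and 317 in EY3960, EY4028 and EY4174, with fewer genes tested. That filter gave 2 members past 0.01 in EY4028, and no filter gave 0. Without line EY4028, 764 genes passed at adjusted p alone and 0 members, and without line EY4174 0 members. Leaving out single libraries gave 759 (without N library 2) to 1467 genes at adjusted p alone, 433 (without EY3960 library 1) to 661 called between EY lines, 0 to 1 members between EY and N, and 0 to 2 members in EY4028. Calls with N library 1, 2 or 3 left out were 806, 759 and 797 at adjusted p alone. The causes were not tested.

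Small log2 differences changed sign, all at an adjusted p of 0.50 or more. Rescaling without mitochondrial transcripts put Suz12 in EY3960 at -0.044 and Tet3 in EY4174 at -0.018. Median-of-ratios scaling put Suz12 in EY3960 at -0.0034, Dnmt3a in EY4028 at -0.034 and Tet3 in EY4028 at -0.070. Quantile normalization put them at -0.025, -0.074 and -0.13, and Dnmt3a in EY4174 at 0.015. The replicate block put Ezh1 at -0.043 for EY and -0.024 for EY4174. Without line EY3960, Tet3 was at 0.0091 and Crebbp at 0.11. Without line EY4028, Dnmt1 was at -0.0049 and Ezh1 at -0.0097, and without line EY4174 Dnmt1 was at -0.042. Over single libraries left out, EY minus N ran from -0.11 to 0.025 for Tet3, -0.077 to 0.072 for Crebbp, -0.024 to 0.095 for Ezh1, -0.00016 to 0.20 for Dnmt1 and -0.21 to 0.036 for Dnmt3a. In EY3960 it ran from -0.12 to 0.014 for Uhrf1, -0.45 to 0.089 for Tet3, -0.18 to 0.011 for Ezh1 and -0.018 to 0.060 for Suz12. In EY4028 it ran from -0.093 to 0.16 for Dnmt3a and -0.011 to 0.035 for Tet3. In EY4174 it ran from -0.21 to 0.22 for Tet3, -0.080 to 0.21 for Ezh1, -0.38 to 0.21 for Dnmt3a and -0.51 to 0.032 for Kdm6b.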
